A study of Homo sapiens with 8 samples.

Results

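Clone 3, a control line grown out clonally from H9 human embryonic stem cells, was compared with the parental H9 line, and neither line carries the ZFX transgene of the study. The members of the comparison are the probes of the bead array detected above background (detection p under 0.05) on 2 or more of the 4 arrays of these lines, and they number 20332 of the 48802 probes on the array. Of these, 6 probes of the X-inactivation and Y-linked genes were left out, 15476 of the 20326 tested probes carry a gene name, and they stand for 11761 genes, each read through its brightest probe. The study asked how embryonic stem cells with extra ZFX, a zinc finger transcription factor on the X chromosome, differ from cells without it, and it hybridised 8 arrays, 2 for each of 4 lines. Clone 3 is wild type for the transgene and clonally derived, H9 (WA-09) is the uncloned parental line, and ZFX clone 2 and ZFX clone 5, used here only as further levels, are H9 cells given a bacterial artificial chromosome with the ZFX locus and picked by drug resistance. All lines were kept in standard conditions for human embryonic stem cells. Clone 3 is 1 clone, and the labels do not say whether it went through drug selection, so clonal origin, selection and any other history of the line cannot be told apart. The labels name no separate cultures behind the 2 arrays of a line. P-values therefore measure only the spread within lines, which may be technical. Each value is RNA of a whole culture, in which fewer cells of a type and less RNA per cell cannot be told apart.

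Human embryonic stem cells resemble the epiblast, the embryonic layer from which the body arises. At gastrulation, cells of the posterior epiblast form the primitive streak, where Nodal and Wnt signals overlap and switch on transcription factors such as brachyury (TBXT), EOMES and MIXL1 on the way to mesoderm and endoderm. Nodal signalling induces NODAL itself and also its secreted antagonists of the LEFTY and Cerberus families, while canonical Wnt signalling induces AXIN2, SP5 and other feedback genes through TCF/LEF factors.

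The promoters of 3 streak and Nodal genes that stood far higher in clone 3 are shown because they hold motifs of the effectors of these pathways. Each runs from 250 bases before to 50 bases after the annotated start (RefSeq, GRCh38.p14), 5′ to 3′ on the strand of the gene. Capitals mark CTTTGAT, a motif of TCF/LEF factors, and AATNCACA, a motif of FOXH1, the Nodal pathway's forkhead factor, either of them read on both strands and overlapping each other nowhere. MIXL1 lies at chr1:226223414-226223713 on the plus strand, SP5 at chr2:170715087-170715386 on the plus strand, and CER1 at chr9:14722684-14722983 on the minus strand.
MIXL1: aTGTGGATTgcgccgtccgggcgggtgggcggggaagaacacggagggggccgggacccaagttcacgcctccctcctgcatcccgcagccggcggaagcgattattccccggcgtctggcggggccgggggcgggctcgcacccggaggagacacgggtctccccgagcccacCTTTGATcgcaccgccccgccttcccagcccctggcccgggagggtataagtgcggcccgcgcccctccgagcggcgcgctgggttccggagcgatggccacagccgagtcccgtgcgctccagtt
SP5: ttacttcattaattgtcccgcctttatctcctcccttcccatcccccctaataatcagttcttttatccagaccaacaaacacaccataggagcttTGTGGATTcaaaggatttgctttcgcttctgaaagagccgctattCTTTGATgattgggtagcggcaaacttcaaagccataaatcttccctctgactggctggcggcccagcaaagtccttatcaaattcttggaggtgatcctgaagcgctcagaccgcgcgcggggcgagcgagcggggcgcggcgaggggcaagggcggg
CER1: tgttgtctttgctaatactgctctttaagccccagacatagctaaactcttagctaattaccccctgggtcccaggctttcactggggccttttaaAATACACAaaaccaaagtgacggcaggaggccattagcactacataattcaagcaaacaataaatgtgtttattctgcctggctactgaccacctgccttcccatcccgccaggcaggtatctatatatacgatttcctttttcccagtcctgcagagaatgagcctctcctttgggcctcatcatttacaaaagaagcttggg
MIXL1 and SP5 hold 1 match to each of these motifs, and CER1 holds 1 to the FOXH1 motif. Of 35116 promoters of the same length, 2.62% hold the TCF/LEF motif and 3.31% the FOXH1 motif. The T-box motif TCACACCT, found in 0.98% of promoters, is in none of the 3, and the windows of EOMES, TBXT, GSC, WNT3, NODAL, DKK1 and APCDD1 hold none of the 3 sets of letters. The window of GDF3, searched but not shown, holds 1 match to the FOXH1 motif and none to the others. A match is a description of the sequence and no evidence of binding.

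Clone 3 differed from H9 in 4545 probes, 22.4% of those tested, at an adjusted p under 0.05 (limma on log2 intensity, Benjamini-Hochberg). Of these, 2201 were higher in clone 3 (10.8%) and 2344 lower (11.5%), and 192 were at least 2-fold higher (0.945%) against 99 at least 2-fold lower (0.487%). By gene, 3159 were called (26.9%), with 1564 higher (13.3%) and 1595 lower (13.6%), and 130 were at least 2-fold higher (1.11%) against 73 at least 2-fold lower (0.621%). Most of the 37 gene lists described below had a larger share of their tested members called than this 26.9%. The median log2 fold over all genes was -0.0066. With arrays scaled by their medians in place of quantile normalization, 1520 probes were called in place of 4545, and without 1 array of clone 3 or H9 between 2772 and 4063. The settings that end the call of a small difference are given beside many of the genes below, and the counts of most lists fall under median scaling. On the authors' processed values, 90 of the 188 called genes named by rule had log2 folds more than 1.5 times smaller, and none changed sign.

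The 2 arrays of clone 3 correlated with each other at r = 0.994 over the detected probes, and the 2 arrays of H9 at r = 0.993. Between clone 3 and H9 arrays r was 0.979 to 0.983. The first principal component of the 8 arrays carried 44.2% of the variance and placed both clone 3 arrays at 35.5, while the other 6 lay between -16.4 and -5.92. Both clone 3 arrays lay above the 6 arrays of the other lines for 1854 genes (15.8%) and below them for 1751 (14.9%). Such genes made up 9.02% and 7.42% for ZFX clone 2, 4.4% and 5.23% for ZFX clone 5, and 10.7% and 9.68% for H9. These shares are not on a par, because the filter used the arrays of clone 3 and H9 only. Genes detected only in a ZFX clone are not counted, while those detected only in clone 3 or H9 are. The correlations and the principal component rest on the same filter. Detected probes numbered 20456 and 20588 on the clone 3 arrays and 19177 and 19251 on the H9 arrays, and the part of that gap in the results was not tested.

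**Figure D1:**
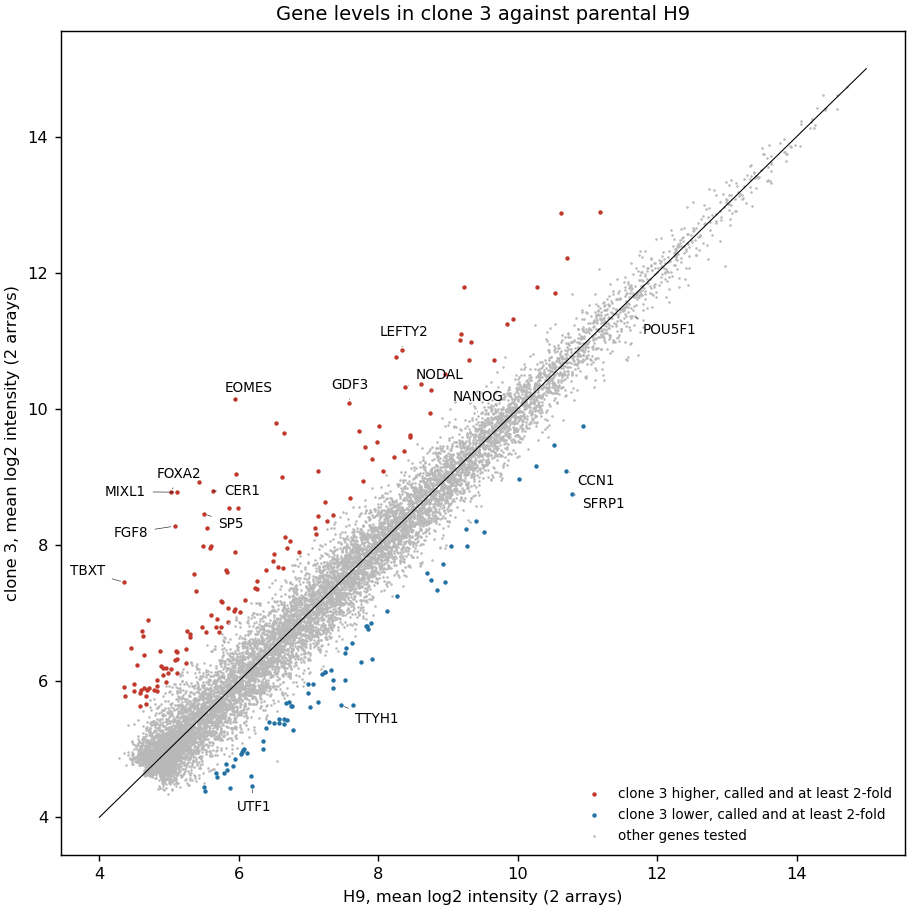
Each point is a gene, with its mean log2 intensity in clone 3 on the vertical axis and in H9 on the horizontal axis (2 arrays each); red and blue mark the 130 genes called at least 2-fold higher and the 73 called at least 2-fold lower in clone 3, and the line marks equal levels. EOMES, MIXL1, FOXA2 and TBXT lie far above the line, SFRP1, CCN1 and UTF1 below it, and POU5F1 and NANOG close to it.

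ZFX itself, the gene the study raised in its other clones, did not separate the control lines. Its log2 intensity was 6.25 and 6.12 in clone 3, against 6.05 and 5.98 in H9, a log2 fold of 0.17 ± 0.14 (SE) (adjusted p = 0.434). It averaged 7.59 in ZFX clone 2 and 7.29 in ZFX clone 5. Among 10 genes at and around the ZFX locus, SAT1 alone was higher (0.37, adjusted p = 0.00112) and APOO alone lower (-0.35, adjusted p = 0.00801), and neither passed under median scaling (adjusted p = 0.142 and 0.449).

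Transcription factors of the primitive streak stood higher in clone 3. The streak list has 14 genes, of which 9 passed the detection filter, and 8 of these were called higher, none lower. Over all genes 13.3% were called higher. Of the 8, 3 were detected on no H9 array and so entered only through their level in clone 3, where a difference was bound to follow. Of the 6 members detected in both lines, 5 were higher. The median log2 fold of the 9 was 2.96, or 2.63 with the undetected genes at their bound, against -0.0066 over all genes. MESP1, MESP2, TBX6 and CDX1 were detected on no array of the lines, and EVX1 on 1 array of clone 3. The summed intensity of the 9 was 3016 and 3174 on the clone 3 arrays, against 366.5 and 362.7 on the H9 arrays.

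EOMES, a T-box factor needed for endoderm and cardiac mesoderm, showed the largest difference of all genes measured in both lines. Its log2 intensity was 10.05 and 10.23 in clone 3, against 6.09 and 5.81 in H9, and the ZFX clones 2 and 5 averaged 4.34 and 4.33. The log2 fold was 4.19 ± 0.14 (SE), which is 18.3-fold (adjusted p = 3.71e-16). H9 sat above the ZFX clones for this gene, and both clone 3 arrays stood far above the other 6.
MIXL1, a homeobox factor of the streak, had log2 intensities of 8.83 and 8.72 in clone 3, against 5.29 and 4.94 in H9. It was 12.7-fold higher in clone 3 (log2 fold 3.66 ± 0.16 (SE), adjusted p = 2.49e-14), with no overlap between the lines. TBXT, the T-box factor brachyury that marks the streak and the notochord, read 7.34 and 7.56 in clone 3, against 4.36 and 4.35 in H9. The H9 readings, like those of the ZFX clones (4.32 and 4.33), were not well above background, so TBXT was at least 6.20-fold higher in clone 3 (adjusted p = 1.17e-12). A further TBXT probe, undetected in H9 too, gave a smaller log2 fold of 1.01 (adjusted p = 0.000182). GSC, the homeobox factor goosecoid of the organizer region, was likewise undetected in H9 and at least 3.17-fold higher (adjusted p = 5.6e-09), with readings of 6.53 and 6.43 in clone 3, against 4.34 and 4.56 in H9. Such bounds set the mean of clone 3 against the higher of the dim reading and the dimmest detected probe of each H9 array.

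The growth factors of the streak followed the same direction. FGF8, which mouse embryos need for cells to leave the streak, had log2 intensities of 8.37 and 8.18 in clone 3, against 5.05 and 5.11 in H9, a log2 fold of 3.20 ± 0.16 (SE) (adjusted p = 2.83e-13). FGF17, a close relative, was undetected in H9 and at least 1.95-fold higher (adjusted p = 1.56e-06). WNT3, the ligand that mouse embryos need to form a streak, read 8.91 and 9.08 in clone 3, against 6.49 and 6.75 in H9 and was 5.19-fold higher (log2 fold 2.37 ± 0.15 (SE), adjusted p = 1.76e-11). SP5, a zinc finger factor and direct target of Wnt signalling, read 8.43 and 8.50 in clone 3, against 5.52 and 5.48 in H9, a log2 fold of 2.96 ± 0.15 (SE) (adjusted p = 2.83e-13). LHX1, a LIM homeobox factor of the anterior streak, was the member that did not pass, at 0.14 (adjusted p = 0.644). All 8 called members stayed called without any 1 array and under median scaling. Their size depended on the background correction, however: on the authors' processed values the log2 folds of MIXL1, FGF8, SP5 and TBXT were 2.02, 1.63, 1.66 and 1.28, and that of EOMES 2.97.

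Of the definitive endoderm genes, the forkhead factor FOXA2 and the secreted antagonist CER1 differed most. In all, 8 of the list's 14 genes were tested, 4 were called higher and none lower, with a median of 0.42. The shares over all genes were 13.3% higher and 13.6% lower. PRDM1 and GATA4 were detected on no H9 array and entered only through clone 3, and of the 6 members detected in both lines 3 were higher. FOXA2, needed for node and endoderm formation in the mouse, read 8.74 and 8.81 in clone 3, against 5.16 and 4.90 in H9 and was 13.4-fold higher in clone 3 (log2 fold 3.75 ± 0.15 (SE), adjusted p = 4.04e-15). It averaged 4.92 in ZFX clone 2 and 5.43 in ZFX clone 5. CER1, which binds and blocks Nodal and BMP ligands, read 8.82 and 8.77 in clone 3, against 5.47 and 5.79 in H9, a log2 fold of 3.16 ± 0.18 (SE) (adjusted p = 3.92e-12). PRDM1, a zinc finger repressor, was undetected in H9 and at least 2.05-fold higher (adjusted p = 3.04e-06), and OTX2, a homeobox factor of anterior epiblast and endoderm, was higher by 0.59 (adjusted p = 0.000129). SOX17, the factor most used to define definitive endoderm, was detected on 1 clone 3 array and no H9 array, as was HHEX, while FOXA1 and GATA6 were detected on none. GATA4 (0.25), FOXA3 (0.21) and CXCR4 (-0.19) did not pass. On the authors' processed values FOXA2 and CER1 had log2 folds of 2.04 and 1.88.

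Downstream lineages gave few detected genes. Their calls stand against 13.3% higher and 13.6% lower over all genes. In the mesoderm list 9 of 17 genes were tested and 2 were called higher, none lower: KDR, the VEGF receptor of vascular precursors, at 0.95 ± 0.14 (SE) (adjusted p = 2.19e-05), and ISL1, a LIM homeobox factor of the second heart field, at 0.49 (adjusted p = 0.0424), a call lost under median scaling and without 3 of the 4 arrays. The later mesoderm factors NKX2-5, FOXF1, MEOX1, MEF2C and TBX5 were detected on no array. Of the genes of later or extraembryonic endoderm, 4 of 10 were tested and none was called, with AFP at -0.03 and TTR at -0.20 by limma (adjusted p = 0.917 and 0.499).

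**Figure D2:**
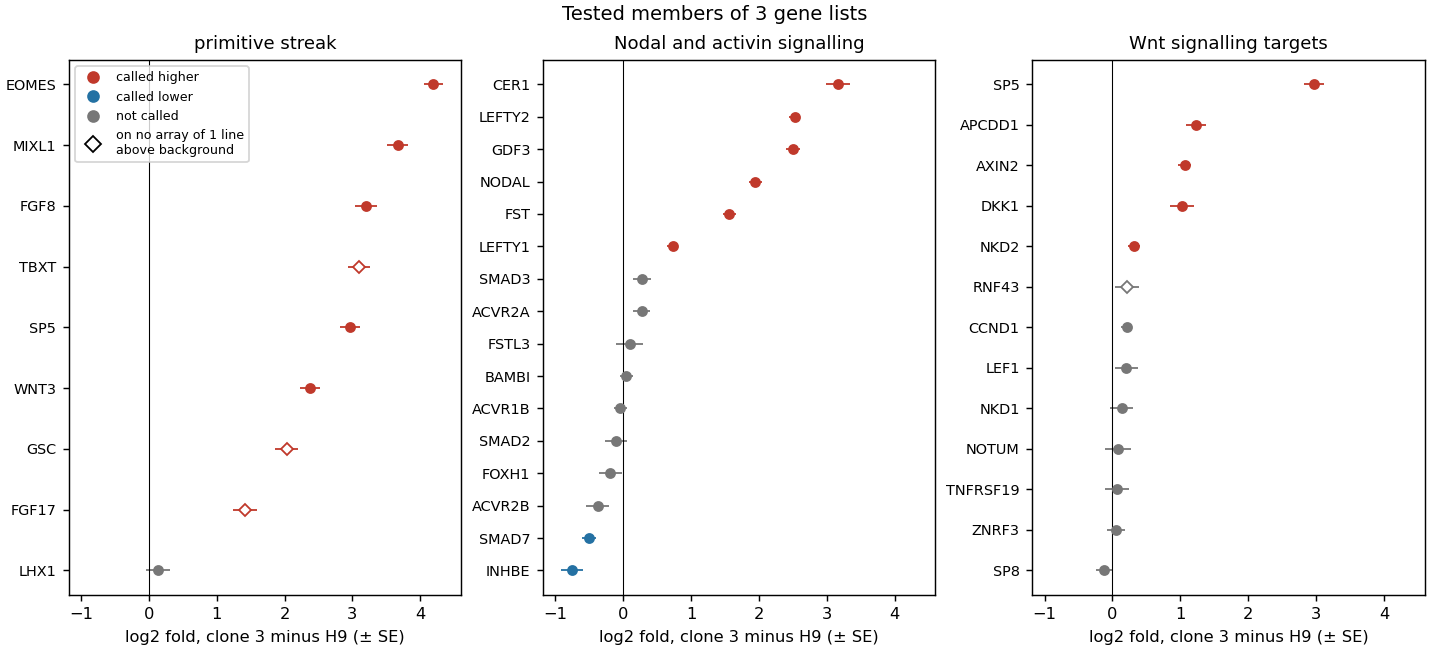
Log2 fold of clone 3 over H9 (± SE from the fit) for the tested members of the primitive streak, Nodal and activin, and Wnt target lists, with red for called higher, blue for called lower and grey for not called; open diamonds mark probes above background on no array of 1 line. The streak panel has 8 of 9 members called higher, the Nodal panel 6 of 16 higher and 2 lower, and the Wnt target panel 5 of 13 higher.

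In the Nodal and activin pathway the ligands NODAL and GDF3 and the secreted antagonists LEFTY2, CER1 and FST were higher in clone 3, and the receptors and SMAD transducers were not called. Of 20 genes 16 were tested, 6 were called higher and 2 lower (13.3% and 13.6% over all genes), with a median of 0.19. NODAL, the ligand, read 10.30 and 10.35 in clone 3, against 8.44 and 8.32 in H9 and was 3.86-fold higher (log2 fold 1.95 ± 0.10 (SE), adjusted p = 6.07e-13). The ZFX clones 2 and 5 averaged 7.26 and 7.12. GDF3, a related ligand, read 10.04 and 10.13 in clone 3, against 7.52 and 7.66 in H9, a log2 fold of 2.50 ± 0.10 (SE) (adjusted p = 1.14e-14). LEFTY2, which blocks Nodal at its receptor, read 10.88 and 10.84 in clone 3, against 8.30 and 8.36 in H9 and was 5.76-fold higher (log2 fold 2.53 ± 0.08 (SE), adjusted p = 3.08e-16). Its neighbour LEFTY1 is near-identical in sequence, so its probe may share signal with LEFTY2. LEFTY1, named after its value was seen, was higher by 0.73 ± 0.08 (SE) (adjusted p = 4.26e-07). FST, follistatin, which binds activin, read 10.51 and 10.53 in clone 3, against 8.92 and 8.98 in H9, a log2 fold of 1.57 ± 0.09 (SE) (adjusted p = 5.59e-12). For each of these genes both clone 3 arrays stood above both H9 arrays, and the arrays of a line differed far less than the lines did.

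Among the pathway's receptors and transducers, ACVR2A (0.27), ACVR1B (-0.04), ACVR2B (-0.37), SMAD2 (-0.10), SMAD3 (0.28) and FOXH1 (-0.19) did not pass. INHBE, an activin subunit gene, was lower by limma at -0.75 (adjusted p = 0.00168), a call lost without clone 3 replicate 1, and the antagonist FSTL3 did not pass (0.10). SMAD7, an intracellular inhibitor, gave opposite calls from 2 probes: -0.50 ± 0.11 (SE) from the brighter one (adjusted p = 0.00142) and 0.50 from the other (adjusted p = 0.0322). The call of the brighter probe was lost under median scaling (adjusted p = 0.152). The coreceptor TDGF1 was not tested here.

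Wnt pathway genes moved both ways, with some feedback targets, WNT3 and the carrier WLS higher and SFRP1, FZD2 and FZD7 lower. Of 13 tested target genes 5 were called higher and none lower (13.3% and 13.6% over all genes), with a median of 0.21. Besides SP5, AXIN2, the scaffold of the complex that degrades beta-catenin, read 9.36 and 9.21 in clone 3, against 8.21 and 8.25 in H9 (log2 fold 1.06 ± 0.09 (SE), adjusted p = 7.89e-09). APCDD1, a membrane inhibitor of Wnt, was higher by 1.23 ± 0.15 (SE) (adjusted p = 2.07e-06) and DKK1, a secreted inhibitor that binds LRP coreceptors, by 1.03 ± 0.18 (SE) (adjusted p = 0.00016). NKD2 was called at 0.32 (adjusted p = 0.0157), but not without 3 of the 4 arrays, nor under median scaling. LEF1 (0.21), RNF43 (0.21), ZNRF3 (0.05) and NOTUM (0.08) did not pass. On the authors' processed values APCDD1 and DKK1 were at 0.55 and 0.30.

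Of 16 tested Wnt ligands, carriers, receptors and secreted inhibitors, 3 were higher and 5 lower, against 13.3% and 13.6% over all genes. WLS, the carrier that takes Wnt ligands to the cell surface, read 7.57 and 7.58 in clone 3, against 5.26 and 5.46 in H9 and was 4.65-fold higher (log2 fold 2.22 ± 0.16 (SE), adjusted p = 1.86e-10), or 1.04 on the authors' values. Its 3 further probes, undetected in H9, were called at 0.88 to 1.02. ROR2, a receptor of noncanonical Wnt ligands, was higher by 1.12 ± 0.13 (SE) (adjusted p = 1.12e-06). SFRP1, a secreted protein that binds Wnt ligands, had the largest fall of all genes measured in both lines. It read 8.70 and 8.81 in clone 3, against 10.85 and 10.71 in H9, a log2 fold of -2.02 ± 0.08 (SE), so that H9 had 4.06 times the clone 3 level (adjusted p = 1.14e-14). The ZFX clones 2 and 5 averaged 10.18 and 10.96, on the side of H9. FZD7 and FZD2, frizzled receptors, were lower by limma at -0.68 ± 0.08 (SE) (adjusted p = 1.67e-06) and -0.88 ± 0.10 (SE) (adjusted p = 4.26e-07), and a further FZD7 probe gave -0.28 and was not called. The other members that were lower, ROR1 (-0.56) and SFRP2 (-0.61), were named after their values were seen. Neither was called under median scaling, where 3 members were lower.

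Genes of the FGF pathway moved both ways, and the ligands that were called were all higher. Of 20 tested genes of FGF and ERK signalling, 7 were higher and 4 lower, against 13.3% and 13.6% over all genes. FGF4, FGF17 and ETV1 were detected on no H9 array and entered only through clone 3, and of the 17 detected in both lines 5 were higher and 4 lower. The ligands FGF8 and FGF17 are described above, and FGF4, an epiblast ligand undetected in H9, was at least 1.45-fold higher (adjusted p = 0.000651). SPRY2, a feedback inhibitor of receptor tyrosine kinases, was higher by 0.62 ± 0.11 (SE) (adjusted p = 0.000152). DUSP6, the phosphatase that inactivates ERK and is induced by it, was lower, with readings of 8.11 and 7.88 in clone 3, against 9.14 and 8.95 in H9 (log2 fold -1.06 ± 0.13 (SE), adjusted p = 1.45e-06). FGFR4, a receptor, was at -0.72 (adjusted p = 1.31e-05), and the receptor FGFR1 and the ligand FGF2 did not pass (-0.24 and -0.08). The receptor FGFR3, named after its value was seen, was higher by 0.47 (adjusted p = 0.000557). Under median scaling 4 genes were higher and 2 lower.

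In the BMP list 2 of 12 tested genes were higher and 2 lower, near the shares over all genes, and under median scaling 2 were higher and none lower. SMAD6, the inhibitory SMAD of BMP signalling, read 7.96 and 7.94 in clone 3, against 6.74 and 6.65 in H9, a log2 fold of 1.25 ± 0.11 (SE) (adjusted p = 1.27e-08). ID2, an inhibitor of basic helix-loop-helix factors and BMP target, was at 0.55 (adjusted p = 0.000239). ID1 (0.05) did not pass, and ID3 was lower by limma at -0.25 (adjusted p = 0.0285), a call lost without any 1 of the 4 arrays and under median scaling. SMAD5 did not pass on its brightest probe (0.18), but a further probe was called at 0.63. In the Notch list 3 of 16 were higher and 5 lower, against 13.3% and 13.6% over all genes. The receptor NOTCH1 (0.59) and the effector HEY2 (0.70) were higher, and the ligand DLL3 (-0.63), the glycosyltransferase LFNG (-0.63) and the effector HES1 (-0.67) were lower by limma (adjusted p from 4.94e-06 for HEY2 to 0.000155 for LFNG). Retinoid genes were led by CYP26A1, the enzyme that degrades retinoic acid, at 10.75 and 10.78 in clone 3, against 8.31 and 8.20 in H9. It was 5.71-fold higher (log2 fold 2.51 ± 0.10 (SE), adjusted p = 6.97e-15), and 3 of 10 tested genes of the list were higher and 1 lower.

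The genes that define undifferentiated cells were bright in both lines. POU5F1 read 11.40 and 11.33 in clone 3, against 11.54 and 11.74 in H9, SOX2 10.45 and 10.78 in clone 3, against 10.72 and 10.48 in H9 and LIN28A 12.26 and 12.38 in clone 3, against 12.43 and 12.40 in H9. SOX2 (0.01), LIN28A (-0.10), SALL4 (-0.13) and DPPA4 (0.05) did not pass. L1TD1 (-0.40, adjusted p = 0.00411) and PODXL (-0.35, adjusted p = 0.00353) were lower by limma. Both calls were lost under median scaling (adjusted p = 0.294 and 0.357) and without 1 of the 4 arrays. A further PODXL probe gave -0.58 and was called. NANOG, with readings of 9.90 and 9.90 in clone 3, against 9.52 and 9.33 in H9, was higher by 0.47 ± 0.09 (SE) (adjusted p = 0.000634), though not under median scaling (adjusted p = 0.0738). POU5F1, whose retrocopies can share its probe, was called at -0.27 ± 0.08 (SE) (adjusted p = 0.018), a call lost under median scaling and without 3 of the 4 arrays.

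Over the pluripotency list, 10 of 21 tested genes were lower and 2 higher in clone 3, with a median of -0.27, against 13.6% lower and 13.3% higher over all genes. Of the 20 detected in both lines 9 were lower and 2 higher. Under median scaling 5 of the list were lower and 1 higher. UTF1, a chromatin-bound factor of undifferentiated cells, was detected on both H9 arrays and on no clone 3 array. Its readings were 4.39 and 4.53 in clone 3, against 6.06 and 6.31 in H9, which bounds the fall in clone 3 at a minimum of 2.68-fold (adjusted p = 8.18e-09). The ZFX clones 2 and 5 averaged 6.81 and 6.58. TRIM71, the LIN41 RNA-binding protein, read 8.34 and 8.35 in clone 3, against 9.33 and 9.48 in H9, a log2 fold of -1.06 ± 0.09 (SE) (adjusted p = 5.14e-09). NR6A1, a nuclear receptor that represses POU5F1 on differentiation in mouse cells, was at -0.76 (adjusted p = 0.00144) and ZSCAN10, a zinc finger factor of stem cells, at -0.59 (adjusted p = 5.83e-06). DNMT3B, the de novo DNA methyltransferase of stem cells, was at -0.43 (adjusted p = 0.000496), and a further probe gave -0.51 and was called, while 2 others gave -0.21 and -0.09 and were not. The call was lost under median scaling.

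In the naive pluripotency list 5 of 10 tested genes were higher and 1 lower (4 and 1 of the 8 detected in both lines). The shares over all genes were 13.3% and 13.6%, and under median scaling 3 of the list were higher. TFAP2C, an AP-2 factor also used by germ cell precursors, read 7.98 and 7.76 in clone 3, against 6.72 and 6.30 in H9 (log2 fold 1.37 ± 0.13 (SE), adjusted p = 3.01e-08), with a further probe at 0.77. SUSD2, a surface protein used to sort naive cells, was higher by 0.94 ± 0.10 (SE) (adjusted p = 2.45e-07). DPPA5, another gene of the naive state, was lower by limma, with readings of 4.69 and 5.02 in clone 3, against 6.03 and 5.85 in H9 (log2 fold -1.09 ± 0.16 (SE), adjusted p = 1.98e-05). KLF17, the naive factor KLF5 and ESRRB did not reach the detection filter.

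Outside these pathways, the largest rises covered enzymes, secreted proteins and signalling adaptors. GAD1, which makes the transmitter GABA, read 8.93 and 8.93 in clone 3, against 5.41 and 5.45 in H9 and was 11.4-fold higher (log2 fold 3.51 ± 0.15 (SE), adjusted p = 1.42e-14). ARRB1, beta-arrestin, read 9.77 and 9.82 in clone 3, against 6.51 and 6.56 in H9, a log2 fold of 3.26 ± 0.10 (SE) (adjusted p = 1.41e-16). Of its dimmer probes, 2 gave 1.79 and were called, and 1, undetected in H9, gave 0.21 and was not. CST1, a secreted cystatin, was 8.48-fold higher (log2 fold 3.08 ± 0.13 (SE), adjusted p = 2.09e-14). The rise of ABHD12B, a hydrolase family gene, was 3.0 from its brightest probe, 2.22 and called from another, and 0.47 and not called from a dim one. MFAP4, a matrix protein, was higher by 2.70, SERPINB9, the inhibitor of granzyme B, by 2.67, GLIPR1L1 by 2.56 and CDA, cytidine deaminase, by 2.55 (adjusted p from 4.97e-16 to 1.17e-12). A further SERPINB9 probe, undetected in H9, gave 0.85. GLIPR1L1 was a bright gene, with readings of 11.82 and 11.77 in clone 3, against 9.23 and 9.24 in H9. For these 15 rises both clone 3 arrays also lay above the 4 arrays of the ZFX clones, as for 1058 of the 1564 genes called higher, and their choice already set them above H9.

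Of genes detected in clone 3 and on no H9 array, the largest bounds besides TBXT and GSC were those of CALCR, the calcitonin receptor, at least 4.24-fold higher, IL1RAPL1, a synaptic adhesion protein, at least 3.79-fold, and ARSL, a sulfatase, at least 3.59-fold. SOX18, a factor of endothelial and lymphatic development, was at least 2.95-fold higher, and TXNIP, the thioredoxin inhibitor, at least 2.67-fold. HPGD, which breaks down prostaglandins, was at least 2.21-fold higher. SOX18 was also above the H9 readings in ZFX clones 2 and 5, which averaged 6.0 and 5.51, while clone 3 read 6.30 and 6.46.

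**Figure D3:**
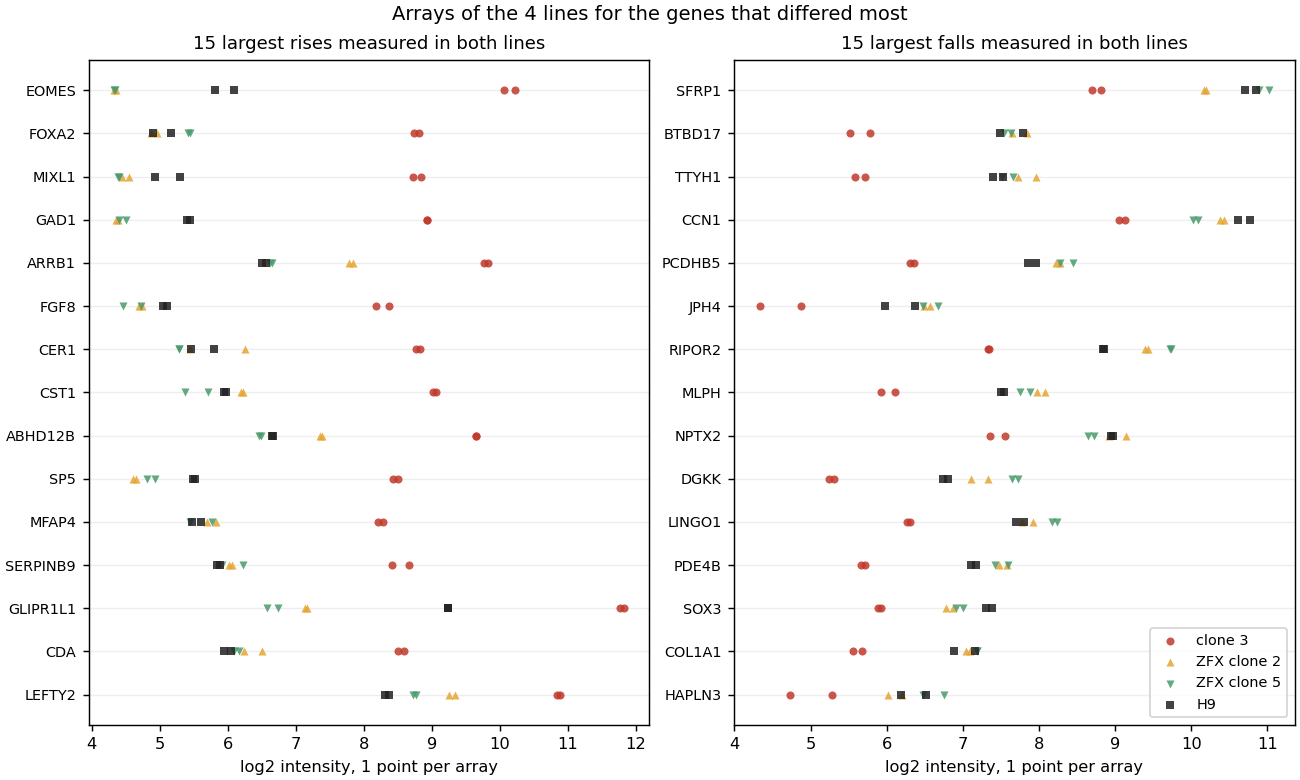
Log2 intensity of the 15 genes with the largest rises (left) and the 15 with the largest falls (right) among called genes detected in both lines, with 1 point per array for clone 3, ZFX clone 2, ZFX clone 5 and H9. On the left both red clone 3 points lie right of all other points for every gene, and on the right they lie left of all others.

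The largest falls after that of SFRP1 were those of BTBD17 and TTYH1. BTBD17 read 5.78 and 5.52 in clone 3, against 7.78 and 7.49 in H9, a log2 fold of -1.99 ± 0.13 (SE) (adjusted p = 3.58e-11). TTYH1, a membrane protein of neural stem cells, read 5.71 and 5.58 in clone 3, against 7.53 and 7.40 in H9, so that H9 had 3.53 times the level of clone 3 (log2 fold -1.82 ± 0.12 (SE), adjusted p = 6.41e-11), with a further probe at -0.79, undetected in clone 3. CCN1, a matrix protein induced by the YAP coactivator, read 9.05 and 9.13 in clone 3, against 10.77 and 10.62 in H9 (log2 fold -1.61 ± 0.08 (SE), adjusted p = 5.56e-13). SOX3, a close relative of SOX2 found in neural progenitors, read 5.93 and 5.89 in clone 3, against 7.31 and 7.38 in H9 (log2 fold -1.44 ± 0.12 (SE), adjusted p = 5.26e-09). NPTX2, a neuronal pentraxin, was at -1.51, LINGO1, a neuronal surface protein, at -1.46, JPH4, a junctophilin, at -1.57 and PDE4B, a cyclic AMP phosphodiesterase, at -1.45 (limma, adjusted p from 4.68e-11 to 4.48e-07). RIPOR2 (-1.51), MLPH (-1.51), DGKK (-1.50) and HAPLN3 (-1.35) were also lower by limma. For these 15 falls both clone 3 arrays also lay below the arrays of the ZFX clones, as for 1069 of the 1595 genes called lower, with the H9 part again set by their choice.

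Of genes detected in H9 and on no clone 3 array, HES3, a repressor of neurogenesis, was at least 2.23-fold lower in clone 3, ZNF562 at least 2.17-fold, NLGN3, a neuroligin, at least 1.88-fold and SNCB, beta-synuclein, at least 1.80-fold. CCDC184, CHST8, a sulfotransferase, and ALOX12, a lipoxygenase, were at least 1.69-fold, 1.67-fold and 1.67-fold lower. On the authors' processed values the log2 folds of BTBD17, TTYH1 and SOX3 were -1.0, -0.89 and -0.72, and that of CCN1 was -1.48.

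Markers of mesenchyme and matrix moved both ways. The list counts stand against 13.3% higher and 13.6% lower over all genes. N-cadherin, CDH2, whose gain marks cells leaving an epithelium, read 11.29 and 11.34 in clone 3, against 10.04 and 9.82 in H9 and was 2.61-fold higher (log2 fold 1.38 ± 0.09 (SE), adjusted p = 1.44e-11). VIM, vimentin, was higher by 0.61 ± 0.09 (SE) (adjusted p = 1.9e-05), and 4 of 12 tested genes of the mesenchymal transition list were higher and 2 lower, and under median scaling 4 and none. E-cadherin, CDH1, did not pass (-0.06). In the list of epithelial junctions 6 of 13 tested genes were lower and none higher, among them the claudin CLDN10 (-0.58), plakoglobin JUP (-0.50) and the splicing factor ESRP1 (-0.54), but under median scaling none of the 6 was called and without 1 array 2 to 5 were. SNAI1, ZEB1, ZEB2 and FN1 did not reach the detection filter.

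In the matrix list all 25 genes were tested, and 9 were higher and 5 lower, against 13.3% and 13.6% over all genes. Under median scaling 6 were higher and 3 lower. COL6A1, a collagen VI chain, read 9.25 and 9.29 in clone 3, against 7.85 and 7.98 in H9 (log2 fold 1.35 ± 0.10 (SE), adjusted p = 2.74e-10), and LAMB1, a laminin chain, was higher by 0.78 (adjusted p = 0.000249). HAS2, hyaluronan synthase, was higher by 1.29 (adjusted p = 8.56e-08), with further probes at 1.38, called, and at 0.19, undetected in H9 and not called. COL1A1, the main chain of collagen I, read 5.68 and 5.55 in clone 3, against 6.88 and 7.16 in H9 (log2 fold -1.40 ± 0.13 (SE), adjusted p = 2.05e-08), and COL2A1, the collagen of cartilage, was at -1.14 (adjusted p = 2.06e-05).

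All 7 tested metallothioneins, small metal-binding proteins, were lower in clone 3, from -0.79 for MT1M to -0.38 for MT1F (named after its value was seen), against 13.6% of all genes. MT2A read 11.01 and 10.90 in clone 3, against 11.42 and 11.79 in H9, a log2 fold of -0.65 ± 0.11 (SE) (adjusted p = 9.22e-05). The paralogues are near-identical, so their probes may share signal, a further MT1H probe gave 0.08 and was not called, and under median scaling 4 of the 7 were called. The summed intensity of the 7 was 15104 and 15741 on the clone 3 arrays, against 22159 and 23218 on the H9 arrays.

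Metabolic and stress lists gave mostly small differences, and their counts stand against 13.3% higher and 13.6% lower over all genes. BNIP3, a mitophagy receptor induced by hypoxia, showed a larger difference, at 11.06 and 10.97 in clone 3, against 9.22 and 9.12 in H9 (log2 fold 1.85 ± 0.09 (SE), adjusted p = 1.1e-13). In the glycolysis and hypoxia list 6 of 21 were lower and 2 higher, BNIP3 and HK2, a hexokinase named after its value was seen (0.33). PKM, pyruvate kinase, was at -0.92 (adjusted p = 9.73e-07), with further probes at -1.47 and -1.31, and VEGFA (0.06), PDK1 (-0.04) and SLC2A1 (0.20) did not pass. Under median scaling 1 was lower and 1 higher. PSAT1, an enzyme of serine synthesis, was lower, with readings of 10.43 and 10.41 in clone 3, against 11.09 and 11.39 in H9 (log2 fold -0.82 ± 0.09 (SE), adjusted p = 3.68e-07). In the stress list 3 of 13 were lower and 1 higher (under median scaling 1 and 1), in the heat shock list 3 of 11 lower and 2 higher, and in the cholesterol synthesis list 5 of 12 lower and 1 higher. Under median scaling no heat shock gene was called, and of the cholesterol genes only MVD, which decarboxylates mevalonate diphosphate, was (-0.67 in the main setting, adjusted p = 0.025 under median scaling).

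In the cell cycle and replication list 6 of 31 tested genes were higher and 8 lower, with a median of -0.0048. Over all genes 13.3% were higher and 13.6% lower. CDKN1A, the p21 inhibitor of cyclin-dependent kinases, read 9.0 and 8.88 in clone 3, against 7.73 and 7.83 in H9 and was 2.24-fold higher (log2 fold 1.16 ± 0.09 (SE), adjusted p = 1.95e-09). ZFX clone 2 averaged 8.88 and ZFX clone 5 8.17. CDK6, a G1 kinase, was higher by 0.96 ± 0.14 (SE) (adjusted p = 1.38e-05). The replication helicase gene MCM2 was at -0.55 (adjusted p = 0.000204), MKI67 at 0.05 and PCNA at 0.06, of which the last pair did not pass. Under median scaling 3 genes were higher and none lower. Of the 11 tested p53 targets 3 were higher and 2 lower, under median scaling 1 higher and none lower, and MDM2 did not pass (-0.11). The lower genes were ZMAT3 (-0.46) and RRM2B (-0.39). Further ZMAT3 probes gave 0.75, called the opposite way, and 0.26, not called, and a further RRM2B probe gave 0.32, not called. Of the higher genes, PMAIP1 (0.44) had a further probe at -0.07, not called. TNFRSF10B (0.47) had further probes at 0.55, called, and -0.06, not called.

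The antigen presentation list had 5 of 13 tested genes lower and none higher, against 13.6% and 13.3% over all genes. CD74, the invariant chain of MHC class II, read 6.02 and 6.25 in clone 3, against 7.15 and 7.32 in H9 (log2 fold -1.09 ± 0.13 (SE), adjusted p = 1.84e-06), and the class II gene HLA-DRA was at -0.38 (adjusted p = 0.0416). Under median scaling CD74 was called and the other 4 were not. Further probes of CD74 (-0.93) and HLA-DRA (-0.45) were called the same way. TAPBP (-0.51) had a further probe at 0.10, not called. PSMB8 (-0.54) had further probes at -0.32 and 0.05, not called, and at -0.64, called but undetected in clone 3. B2M, the light chain of MHC class I, did not pass (-0.04). In the apoptosis list BCL2L1, the antiapoptotic BCL-XL, was the single call of 13 by brightest probe, with readings of 8.37 and 8.30 in clone 3, against 9.32 and 9.31 in H9 (log2 fold -0.98 ± 0.09 (SE), adjusted p = 9.92e-09) and a further probe at -0.57. BAD did not pass on its brightest probe (-0.12), but a further probe, undetected in clone 3, was called at -0.68. BCL2L1 lies in 20q11.21, a segment that human embryonic stem cells often gain in culture. Of 10 tested genes there 4 were lower and none higher in clone 3, with PLAGL2 at -0.69 and ID1 at 0.05, and under median scaling 2 were lower. Of the 4, HM13 (-0.49) had further probes at -0.21 and 0.09, and POFUT1 (-0.36) had a further probe at 0.28. None of these further probes was called.

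Markers of other cells that a culture could hold moved both ways, and their counts stand against 13.3% higher and 13.6% lower over all genes. Of the fibroblast genes, 5 of 9 tested were lower and TAGLN, a smooth muscle actin-binding protein, was higher (0.92, adjusted p = 6.66e-09, with a further probe at 0.39). Under median scaling 3 were lower. Their summed intensity was 5611 and 5757 on the clone 3 arrays, against 5038 and 5058 on the H9 arrays. COL3A1, POSTN, LUM and FAP were not detected on 2 of the 4 arrays. Of the lower fibroblast genes, COL1A2 (-0.44) had a further probe at -0.15. COL6A3 (-0.83) had a further one at -0.28, undetected in clone 3, and neither further probe was called. Of 10 tested neuronal genes 3 were higher and 3 lower, with the neurofilament NEFL at 1.28. The synaptic vesicle gene SYP was at -0.81, a call lost without 2 of the 4 arrays. SYP was detected on no clone 3 array and entered only through its level in H9. Of the 9 neuronal genes detected in both lines 3 were higher and 2 lower. Summed intensities of the neuronal genes were 3165 and 3132 on the clone 3 arrays, against 2948 and 2914 on the H9 arrays. In the neuroectoderm list 2 of 9 were higher and 2 lower, under median scaling 1 and 2, with PAX6 at -0.44 (adjusted p = 0.0868). Of the trophoblast and amnion genes 3 of 7 were lower and none higher, and under median scaling none was called. Of the 3, IGFBP3 was detected on no clone 3 array and entered only through its level in H9. Of the 6 detected in both lines 2 were lower. Neural crest gave 1 call of 6 by brightest probe, SOX9 at -0.75 (adjusted p = 0.00085). ETS1 did not pass on its brightest probe (-0.12), but a further probe was called at 0.62. Blood and endothelial genes gave KDR higher and TEK lower (-0.38, a call lost under median scaling and without any 1 of the 4 arrays), while PTPRC, PECAM1, CDH5, TAL1 and GATA1 were detected on no array.

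**Figure D4:**
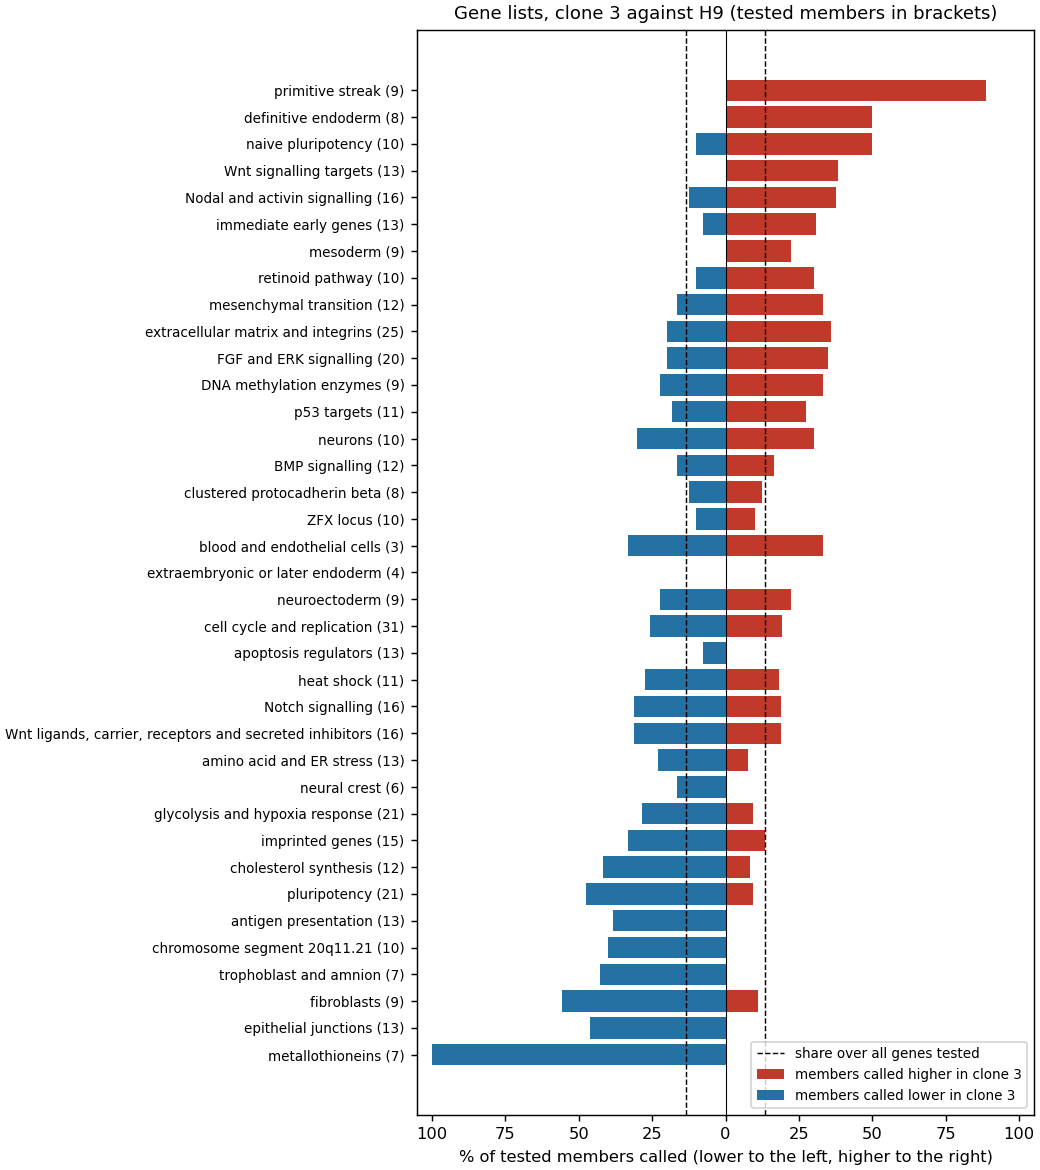
For each of 37 gene lists, the percentage of tested members called higher (red, to the right) and lower (blue, to the left) in clone 3, with the number tested in brackets and dashed lines at the 13.3% and 13.6% of all tested genes. The streak list reaches furthest right with 8 of 9 members and the metallothionein list furthest left with 7 of 7.

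Imprinted genes, DNA methylation enzymes, immediate early genes and clustered protocadherins gave calls both ways. The shares over all genes were 13.3% higher and 13.6% lower. Of 15 tested imprinted genes 2 were higher and 5 lower, and under median scaling 1 was higher and 2 were lower, with MEST at 7.65 and 7.92 in clone 3, against 8.79 and 8.75 in H9 (log2 fold -0.98 ± 0.11 (SE), adjusted p = 7.21e-07). DLK1, a noncanonical Notch ligand, was at -0.98 (adjusted p = 0.0003), but a further probe gave 0.10 and was not called. For SNRPN, 2 of its probes were called in opposite directions, at 0.49 and -0.22, and a further one gave 0.13 and was not called. Of the immediate early genes 4 of 13 were higher and 1 lower, with FOSB at 0.96 (adjusted p = 6.44e-06), FOS at 0.65 (adjusted p = 1.36e-05) and JUN at -0.51 (adjusted p = 0.00173). The call of JUN was lost without H9 replicate 2 and under median scaling (adjusted p = 0.196), where 2 genes of the list were higher and none lower. The methylation list had 3 of 9 higher and 2 lower, and under median scaling 1 higher and none lower. Of 8 tested clustered protocadherins, which single cells express in a stochastic choice, PCDHB5 was lower, with readings of 6.30 and 6.36 in clone 3, against 7.96 and 7.85 in H9 (log2 fold -1.58 ± 0.10 (SE), adjusted p = 5.83e-11). PCDHB9 was higher at 0.54 (adjusted p = 0.00311, and 0.0756 under median scaling).

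Medians by chromosome stayed close to 0. They ran from -0.04 on chromosome 16, with 65 of 529 genes higher and 94 lower, to 0.08 on chromosome 21, with 28 of 124 higher and 11 lower. Over 25 neighbouring tested genes, the lowest running median was -0.31, on chromosome 12 from PPHLN1 to ZNF641, where 1 gene was higher and 11 were lower. The highest was 0.34, on chromosome 10 from HSPA14 to ARHGAP21, where 9 genes were higher and none lower. These medians are a description with no test, and copy number was not measured.

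**Figure D5:**
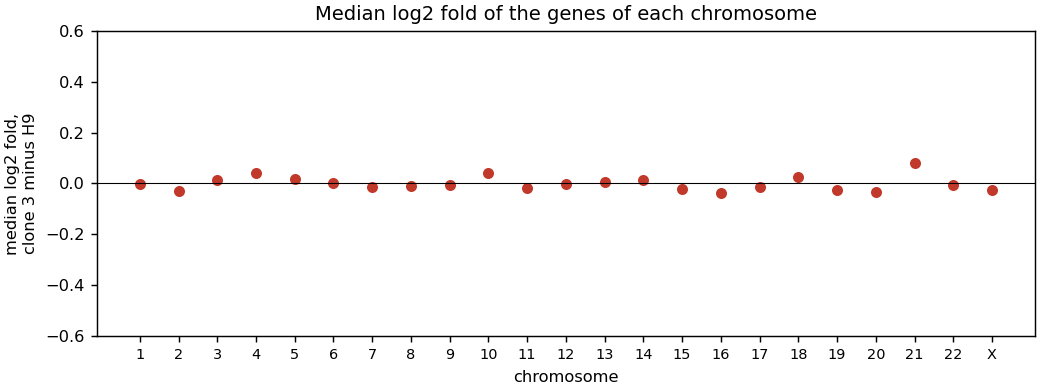
Median log2 fold of clone 3 over H9 for the tested genes of each chromosome, with 1 point per chromosome. All points lie between -0.04 and 0.08.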

How the data were processed

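Biotin-labelled RNA of 4 lines was hybridised to 8 Illumina bead arrays, 2 per line, and the arrays were assigned to lines by their titles. The authors deposited probe intensity on a linear scale, not normalized, with a detection p-value per probe and array, per the file headers. They also deposited a table of log2 values, whose background correction and normalization are not given in the sources used here. The submitters' processing notes name BeadStudio as the software.

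Here intensities were corrected by normexp in limma 3.58.1 (R 4.3.3; offset 16, control beads modelled through the detection p-values), quantile normalized over 8 arrays and put on the log2 scale. Clone 3 minus H9 was taken from a limma model with 4 line means and an intensity trend, adjusted over 20326 probes by Benjamini-Hochberg and called at 0.05. Each gene was read through its probe with the highest mean, among 28098 probes of the array with 1 symbol in the platform annotation (13 have several and 20691 none). Other tested probes of called genes numbered 1165, of which 320 were called the same way, 35 the opposite way and 810 not. The spread of a probe was shrunk to that of probes of like intensity with 19.4 prior degrees of freedom beside 4 residual ones, so the small p-values rest largely on this shared spread. The fit was tested on simulated data, but no result of that test is given here. The number of arrays limits the precision.

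The genes named are ZFX, the 15 largest rises and falls among called genes detected in both lines with arrays that do not overlap, the 8 largest bounds each way, up to 6 members of each of 37 gene lists and 10 markers of undifferentiated cells. Genes named beside these did not pass or are said to be named after their values were seen. Members and lists were chosen with earlier results of these data known. The reference table (GRCh38.p14) served for names, chromosomes, neighbour order and RefSeq promoters. Alternatives varied the background correction, scaling, values, arrays fitted, variance model, filter, probes per gene, replicate block and arrays left out. Figures were drawn with matplotlib 3.10.9.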

Additional observations from a re-analysis of the deposited data

How the results depend on the processing

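The 4545 called probes became 1520 under median scaling, with 835 higher and 685 lower in place of 2201 and 2344. There limma's prior degrees of freedom were infinite, so that probes of like intensity took 1 common spread. Without 1 array of clone 3 or H9 in turn, 2772 to 4063 were called, 1340 to 2005 of them higher and 1401 to 2058 lower, with the lowest count without clone 3 replicate 2. The other settings called 3199 (no intensity trend) to 4677 (detection p under 0.01). With the replicate number as a block 4636 probes were called, and 2 named genes lost and 1 gained the call. The labels do not say whether a number marks a shared day. Deviations of same-numbered clone 3 and H9 arrays from their line means correlated at -0.0095, and those of the other pairs of lines at 0.0081 to 0.062. With 2 arrays a line, such correlations cannot settle what a number marks. The number of called probes at least 2-fold apart, 291, was 116 without background correction, 125 with an offset of 50 and 75 on the authors' processed values. Called higher members of the primitive streak list numbered 5 where detection on all 4 arrays was required, since only 5 were then tested, and 8 under each other setting run. No named called gene changed sign under another background correction, under median scaling or on the authors' values. Of the 243 named genes 188 were called. Of these calls, 67 were lost under median scaling and 13 to 32 without 1 array, and the causes were not tested. Slide as a block was not run, as the headers used here give no slide. With 2 arrays a line, dim probes give bounds only, and the spread between cultures is not measured.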
